A study of Homo sapiens with 4 samples.

Results

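The genes described here are MYC, its network partners MAX, MXI1, MXD4, MNT and MLX, and the TCF3, ID3 and CCND3 genes that act beside MYC in Burkitt lymphoma. These 9 genes were listed by name, each matched 1 of the 51714 Ensembl gene identifiers in the count tables, and all 9 had enough reads to be tested. The cells were Raji, a human B cell line established from a Burkitt lymphoma and positive for Epstein-Barr virus. Both groups were Raji cells electroporated with a vector (LS*mock) that expressed RPB1 with an HA tag and resistance to α-amanitin. RPB1 is the largest subunit of RNA polymerase II. Selection in both groups was in G418 for 6 to 12 days and then in α-amanitin for 10 days. In the WT group (2 libraries) the recombinant subunit was wild-type, and in the R1810A group (2 libraries) the arginine at that position of its C-terminal domain was replaced by alanine. The study asked whether gene expression changes when this arginine cannot be methylated.

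Each line was a polyclonal batch, and the endogenous RPB1 gene was still present in both. Sequencing was of total RNA after removal of ribosomal RNA, with 2081636 to 2991959 reads assigned to genes per library and WT replicate 2 the deepest. The labels do not tell whether replicate libraries are separate cultures. The p-values therefore reflect only the variation among the 4 libraries, which may be technical. POLR2A, which codes for RPB1, stood at 74.3 and 72.3 RPKM in WT and 75.3 and 80.0 RPKM in R1810A. Reads from the vector and from the endogenous gene are not separated, so this does not check the labels. All 9 B cell markers examined had reads (summed level 1271 to 1558 RPKM over the 4 libraries). Of 5 T cell markers CD3D and CD2 had none, and the T cell list summed to at most 0.253 RPKM. The 5 myeloid markers all had reads and summed to 17.5 to 25.3 RPKM in WT and 18.6 to 28.9 RPKM in R1810A. In RNA from whole cultures, fewer cells of a type and less RNA per cell cannot be told apart.

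MYC is a transcription factor that binds E-box DNA only as a dimer with MAX and drives growth and cell division. MXI1, MXD4 and MNT compete with MYC for MAX and recruit SIN3 corepressors, while MLX is a MAX-like protein that pairs with MNT, MXD4 and the nutrient-sensing MLXIP and MLXIPL proteins. In Burkitt lymphoma a chromosomal translocation puts MYC under immunoglobulin gene control. TCF3, an E protein, activates B cell genes, ID3 is its target and blocks it by forming dimers that cannot bind DNA, and CCND3 (cyclin D3), another TCF3 target, drives cells from G1 into S phase. TCF3, ID3 and CCND3 are recurrently mutated in this tumour.

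Because these proteins act on E boxes, RefSeq promoter windows (GRCh38.p14, 250 bases before to 50 after the start) were searched for the MYC-MAX type box CACGTG and for the E-protein type boxes CAGCTG and CAGGTG, on both strands (CACCTG is the other strand of CAGGTG). Windows were found for 8 of the 9 genes, all but MYC. Further start sites of a gene, where it has them, were not searched. CACGTG was present once each in MXD4, MNT and MLX, against 7.43% of 27305 promoter windows. CAGGTG was present once each in MXI1 and CCND3, against 20.6% of windows. CAGCTG, held by 17.7% of windows, was in none of the 8. The matched boxes, in capitals and on the strand of the gene, are shown with 10 bases on each side, and none overlapped another box searched.
MXD4, chr4:2262332-2262357, minus strand, box 238 bases before the start: gccgggccacCACGTGctgttgctaa
MNT, chr17:2401238-2401263, minus strand, box 193 bases before the start: ctgcccgggcCACGTGtgcgcgcgcc
MLX, chr17:42567040-42567065, plus strand, box 50 bases before the start: gggcgcgggtCACGTGggcacgccac
MXI1, chr10:110207361-110207386, plus strand, box 234 bases before the start: tgtttttatgCAGGTGcacccagaga
CCND3, chr6:42048910-42048935, minus strand, box 237 bases before the start: ccgccgcccaCACCTGagcctccgtg
The 3 genes with CACGTG all code for partners or antagonists in the MYC network, as do MAX and MXI1, whose windows had none. A match is only a string of letters, and no binding was measured in these cells.

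Levels of different genes were compared as RPKM, reads scaled by the deposited gene length and by the library's total reads, as the authors deposited them. TCF3, MYC, CCND3 and ID3 were abundant, MAX, MLX and MXI1 intermediate, MXD4 near the typical gene and MNT scarce. Among the 10674 genes tested the median level was 6.56 RPKM and the quartiles were 2.86 and 14.9 RPKM.

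**Figure D1:**
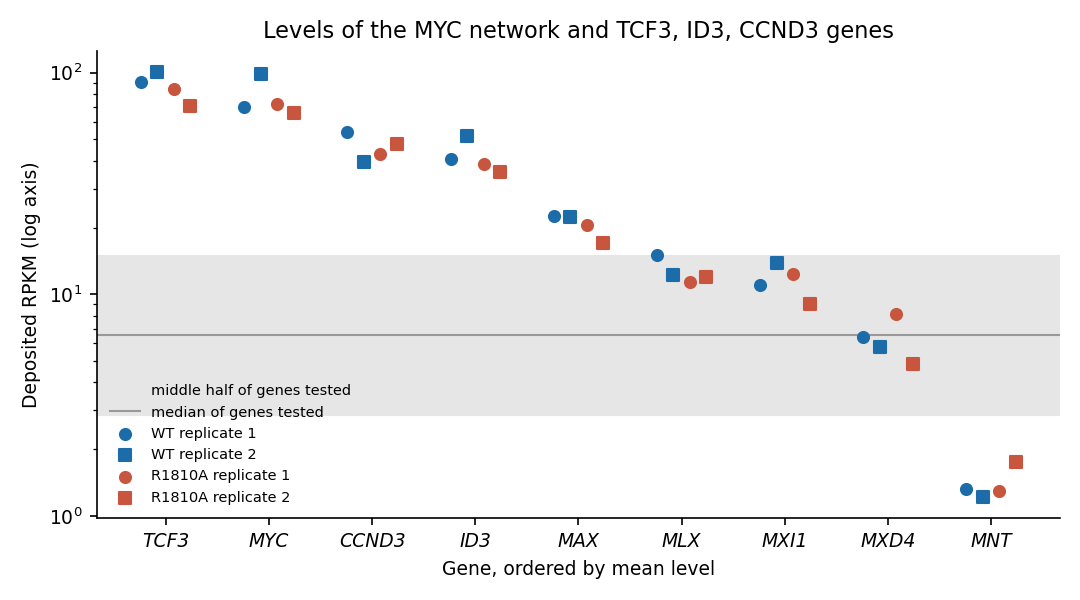
Deposited RPKM (log axis) of each gene in each of the 4 libraries, ordered by mean level, with WT in blue, R1810A in red, circles for replicate 1 and squares for replicate 2. The grey band spans the quartiles of the 10674 genes tested (2.86 to 14.9 RPKM) and the line is their median (6.56 RPKM); TCF3, MYC, CCND3, ID3 and MAX lie above the band in every library and MNT lies below it.

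TCF3 was the highest of the 9, at a mean of 86.7 RPKM over the 4 libraries, above 97.2% of genes tested. MYC followed with 76.6 RPKM (above 96.6% of genes), CCND3 with 46.1 RPKM (93.3%) and ID3 with 41.7 RPKM (92.4%). MAX stood at 20.6 RPKM (82.0%), MLX at 12.7 RPKM (70.6%), MXI1 at 11.6 RPKM (68.0%), MXD4 at 6.28 RPKM (48.6%) and MNT at 1.40 RPKM (10.8%). TCF3 exceeded MYC in all 4 libraries, although the ranges of the 2 genes over libraries overlapped. CCND3 exceeded ID3 in 3 of 4 libraries and MLX exceeded MXI1 in 2 of 4, so the order within these pairs did not stand out from their spread. The other 5 neighbouring pairs in the order had ranges that did not overlap, with ratios of means from 1.63 (MAX over MLX) to 4.50 (MXD4 over MNT).

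MYC itself was counted with 864 and 1593 reads with the WT subunit and 865 and 811 with R1810A. Its levels were 70.4 and 98.4 RPKM with the WT subunit and 71.9 and 65.6 RPKM with R1810A. On the RPKM scale WT replicate 2 was the single high library, and the groups overlapped because WT replicate 1 lay between the R1810A libraries. MYC was the main transcript of its family: it made up 99.5 to 99.9% of the RPKM summed over MYC, MYCN and MYCL. MYCN, a paralogue best known from neural tumours, had 0 reads in all 4 libraries, which allows a level of up to 0.213 to 0.286 RPKM per library (3 reads). MYCL, with 4 and 13 WT reads and 2 and 1 R1810A reads, was too low to be tested.

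MAX, the shared partner without which MYC does not bind DNA, had 22.6 and 22.3 RPKM in WT and 20.5 and 17.0 RPKM in R1810A. Both R1810A libraries lay below both WT libraries. In the GRCh38 gene annotation MAX overlaps CHURC1-FNTB on the opposite strand, which had 315 to 500 reads per library. Since the use of strand in the counting is not stated, reads of the 2 genes may not be fully separated. MLX, which pairs with the glucose-responsive arm of the network, had 15.0 and 12.3 RPKM in WT and 11.4 and 12.0 RPKM in R1810A.

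Among the antagonists, MXI1 had 11.0 and 13.8 RPKM in WT and 12.4 and 9.03 RPKM in R1810A. MXD4 had 6.40 and 5.77 RPKM in WT and 8.11 and 4.84 RPKM in R1810A, so that the R1810A libraries were the highest and the lowest of the 4. MNT, broadly expressed in most tissues, had only 27 and 33 reads with the WT subunit and 26 and 36 with R1810A, or 1.32, 1.22, 1.30 and 1.75 RPKM. MXI1 made up 56.2 to 65.6% and MXD4 27.4 to 36.8% of the RPKM summed over MXD1, MXI1, MXD3 and MXD4. R1810A replicate 2 was the lowest library for MXI1 and MXD4 and the highest for MNT, and in MXI1 and MXD4 the R1810A libraries alone spanned most of the range.

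TCF3 received 1803 and 2635 reads with the WT subunit and 1633 and 1420 with R1810A, or 91.0 and 100.8 against 84.0 and 71.1 RPKM. It was the main E protein transcript, at 76.1 to 81.1% of the RPKM summed over TCF3, TCF4 and TCF12. ID3 had 40.9 and 51.6 RPKM in WT and 38.6 and 35.6 RPKM in R1810A, with WT replicate 2 the highest, as for MYC and TCF3. It made up 97.7 to 98.6% of the ID family: ID2 had 5 to 10 reads per library, and ID1 and ID4 had a single read each over all 4 libraries. CCND3 had 54.1 and 39.4 RPKM in WT and 43.2 and 47.8 RPKM in R1810A, and here WT replicate 2 was the lowest library. CCND3 was almost the only D-type cyclin, at 99.3 to 99.9% of the family, since CCND1 and CCND2 had at most 4 reads in any library. These shares of families were computed after the levels were seen, as descriptions with no test.

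To ask whether the R1810A subunit changed these genes, all 10674 genes that passed a filter on low counts were tested together with edgeR's quasi-likelihood test and Benjamini-Hochberg adjustment, on counts scaled between libraries with TMM. None of the 9 genes passed an adjusted p of 0.05, against 0.356% of all genes tested (37 higher, or 0.347%, and 1 lower, or 0.00937%). DESeq2 and limma-voom also called 0 of the 9. At an unadjusted p under 0.05 there were 0 of 9 with each of the 3 tools, against 8.0% of all genes with edgeR. That count was 2 of 9 when libraries were scaled by the deposited total reads, which moved the median of all genes by -0.12. The share of all genes at that p under this scaling was not computed, so the 2 of 9 has no background. Leaving out a library also raised this count in some fits. Those fits leave 1 library in a group, so their counts are not given. On the log2 scale the difference of R1810A from WT ran from -0.20 (ID3) to 0.39 (MNT), with 3 positive and 6 negative. Their median was -0.10, beside -0.005 over all genes tested, of which 49.4% were positive. The median of the 9 was -0.019 without WT replicate 2, -0.036 without R1810A replicate 2, -0.22 without R1810A replicate 1 and -0.22 with scaling by the deposited total reads.

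**Figure D2:**
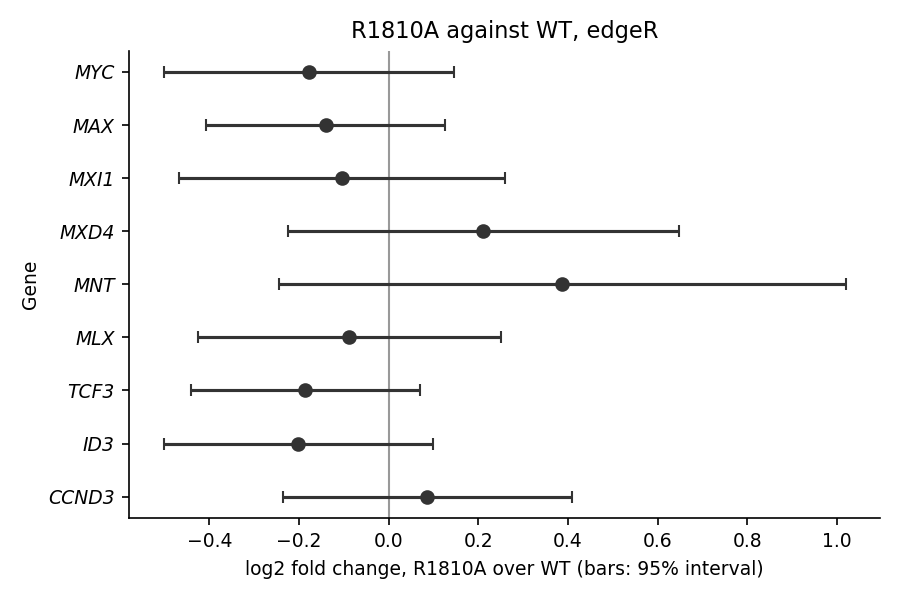
Log2 fold change of R1810A over WT for the 9 genes from the edgeR fit across all genes, with 95% intervals as bars. Each interval includes 0, and the widest is that of MNT, from -0.24 to 1.02.

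The intervals show what sizes of change these libraries leave possible. MYC was measured at 379 and 530 CPM (counts relative to the TMM-scaled library size) in WT and 415 and 390 CPM in R1810A. Its log2 fold change was -0.18 (SE 0.15, adjusted p = 0.783), with a 95% interval of -0.50 to 0.15. TCF3 had 790 and 877 CPM in WT and 783 and 683 CPM in R1810A. The log2 fold change was -0.19 (SE 0.12, edgeR adjusted p = 0.709, interval -0.44 to 0.07). ID3 stood at 132 and 167 CPM in WT and 134 and 127 CPM in R1810A. It differed by -0.20 on the log2 scale (SE 0.14, edgeR adjusted p = 0.738, interval -0.50 to 0.10). CCND3, at 515 and 376 against 441 and 503 CPM, differed by 0.09 (SE 0.15, adjusted p = 0.909, interval -0.24 to 0.41). CCND3 stood at -0.04 when libraries were scaled by the deposited total reads, which moved the median of all genes by -0.12. As folds of R1810A over WT, the intervals ran from 0.71 to 1.11 for MYC, 0.74 to 1.05 for TCF3, 0.71 to 1.07 for ID3 and 0.85 to 1.33 for CCND3, so larger changes lay outside them and smaller ones were not resolved.

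The network partners were measured with like precision, apart from the scarce ones. MAX differed by -0.14 (SE 0.12, adjusted p = 0.791, interval -0.41 to 0.13), MLX by -0.09 (SE 0.15, interval -0.43 to 0.25) and MXI1 by -0.10 (SE 0.17, interval -0.47 to 0.26). MXD4 differed by 0.21 (SE 0.20, adjusted p = 0.809, interval -0.23 to 0.65). MNT, with the fewest reads, had the largest value at 0.39 (SE 0.29, adjusted p = 0.760), and its interval of -0.24 to 1.02 reached a fold of 2.03. The CPM values of the groups did not overlap in 3 of the 9 genes: MAX and TCF3 lay lower in R1810A and MNT higher. Among all genes tested the groups did not overlap in 39.3%, so the share among the 9 is near that of all genes. On the RPKM scale, which uses the deposited total reads, MAX, TCF3, ID3 and MLX lay lower in both R1810A libraries and the MNT groups overlapped. Scaling by total reads moved the median log2 fold change of all genes by -0.12. The share of all genes that lay lower on the RPKM scale was not computed.

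Differences between libraries of 1 group were as large as those between groups. MYC was 1.40-fold higher in WT replicate 2 than in WT replicate 1 (95% counting interval 1.29 to 1.52), while the R1810A libraries differed 0.94-fold (0.85 to 1.04). ID3 was 1.26-fold higher in WT replicate 2 (1.09 to 1.46), MXI1 1.26-fold (1.05 to 1.50) and TCF3 1.11-fold (1.05 to 1.18). CCND3 went the other way, at 0.73-fold (0.67 to 0.79). MXD4 showed its gap in the mutant group, with R1810A replicate 2 at 0.62-fold of replicate 1 (0.50 to 0.76). The R1810A libraries also differed in MXI1, at 0.75-fold (0.61 to 0.92), TCF3, at 0.87-fold (0.81 to 0.94), and CCND3, at 1.14-fold (1.04 to 1.25). For ID3 they differed 0.95-fold (0.80 to 1.13). These intervals are Clopper-Pearson intervals carried to the ratio and cover counting error only. Where an interval left out 1, the libraries of that group differed by more than counting. The R1810A intervals of MYC and ID3 included 1, as did the WT interval of MXD4 and both intervals of MAX, MLX and MNT.

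**Figure D3:**
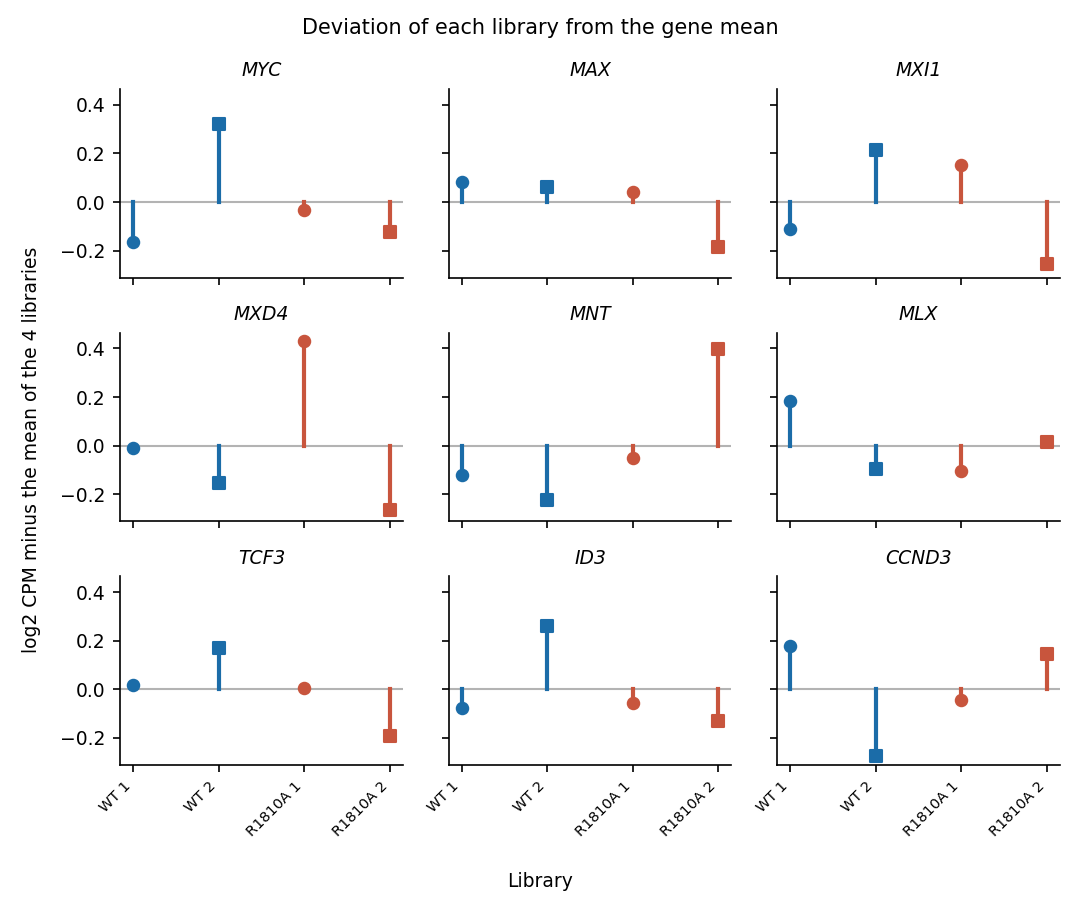
Deviation of each library's log2 CPM from the gene's mean over the 4 libraries, 1 panel per gene, WT in blue and R1810A in red. MYC, ID3 and TCF3 are highest in WT replicate 2 and CCND3 is lowest there, MXD4 stands out in R1810A replicate 1 (0.43) and MNT in R1810A replicate 2 (0.40).

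The values of single genes moved when a library was left out. ID3 ran from -0.36 (without WT replicate 1) to -0.019 (without WT replicate 2). MAX ran from -0.26 (without R1810A replicate 1) to -0.036 (without R1810A replicate 2), TCF3 from -0.29 to -0.095 and MNT from 0.60 to 0.13 under the same settings. Leaving out WT replicate 2 turned the sign of 3 genes: MYC then differed by 0.09 (edgeR adjusted p = 0.758), MXI1 by 0.07 and CCND3 by -0.13. With WT replicate 1 left out, MYC differed by -0.40 (SE 0.09, edgeR adjusted p = 0.063), the smallest adjusted p of any of the 9 genes under any setting tried. The spread then comes from the R1810A pair alone, and the single WT library is assumed to vary like it. The number of all genes called moved from 38 to 153 without WT replicate 1 and to 2 without WT replicate 2.

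The balance between partners was taken within each library, where the scaling between libraries has no part. MYC exceeded MAX 3.11 and 4.41-fold in WT and 3.50 and 3.86-fold in R1810A, as ratios of RPKM. The 3 antagonists MXI1, MXD4 and MNT together reached 0.27 and 0.21 of the MYC level in WT and 0.30 and 0.24 in R1810A. MLX stood at 0.66 and 0.55 of MAX in WT and 0.55 and 0.71 in R1810A. TCF3 exceeded ID3 2.23 and 1.95-fold in WT and 2.17 and 2.00-fold in R1810A, the narrowest spread of the ratios formed, and the log2 ratio had a mean of 1.06 in both groups (SD 0.13 and 0.09, n = 2). CCND3 reached 0.59 and 0.39 of TCF3 in WT and 0.51 and 0.67 in R1810A.

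**Figure D4:**
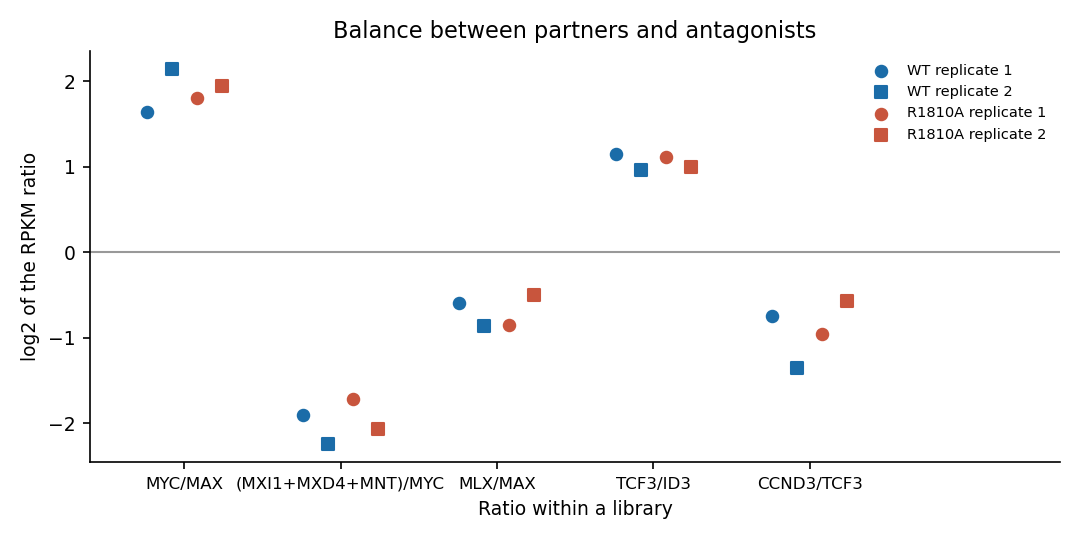
Log2 ratio of RPKM values within each library for 5 pairs or sums of genes, WT in blue and R1810A in red, circles for replicate 1 and squares for replicate 2. In every ratio the WT and R1810A points overlap, and the sum of MXI1, MXD4 and MNT lies below MYC in all 4 libraries.

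None of these 5 ratios separated the groups. The differences of R1810A minus WT on the log2 scale were -0.01 for MYC over MAX, 0.18 for the antagonists over MYC, 0.06 for MLX over MAX, -0.0005 for TCF3 over ID3 and 0.28 for CCND3 over TCF3. A sixth measure, the share of TCF3 among the E proteins, was 80.0 and 81.1% in WT and 79.2 and 76.1% in R1810A, and here both R1810A libraries lay lower. Two-sided exact permutation p-values over the 6 measures were 0.333 to 1.00 (adjusted p = 1.00 for each), and 2 against 2 libraries allow none below 0.333.

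Of the other network genes, MGA alone lay above the median level of genes tested. MLXIPL, a glucose-responsive MLX partner prominent in liver, had 0 reads in all 4 libraries, which allows up to 0.115 to 0.155 RPKM per library, and MLXIP had 55 to 72 reads per library, at 2.66 ± 0.41 RPKM in WT and 2.66 ± 0.32 RPKM in R1810A (SD, n = 2). MGA, a very large MAX-binding repressor, stood at 8.86 ± 0.27 RPKM in WT and 9.27 ± 0.32 RPKM in R1810A (log2 fold change 0.19, SE 0.11, edgeR adjusted p = 0.679). MXD3 had 21 to 34 reads per library and MXD1 7 to 11. Of the 7 genes in this list 3 were tested and none passed. TCF4 and TCF12, the other E proteins, stood at 15.0 and 8.09 RPKM in WT and 14.3 and 7.84 RPKM in R1810A, with log2 fold changes of 0.05 and 0.07, which were -0.07 and -0.05 when libraries were scaled by the deposited total reads.

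In 9 lists of related genes, 121 distinct genes were tested and 0 passed the adjusted threshold with edgeR (0.356% of all genes did). With an unadjusted p under 0.05, 9 of the 121 were higher and 4 lower (10.7% in all). The share of all genes was 8.0%, with 4.94% higher and 3.06% lower. The list medians ran from -0.11 to 0.13 on the log2 scale, beside -0.005 for all genes. In 6 of the 9 lists the median changed sign when 1 of the 4 libraries was left out, as in the extended network, from 0.13 to -0.026 without WT replicate 2.

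**Figure D5:**
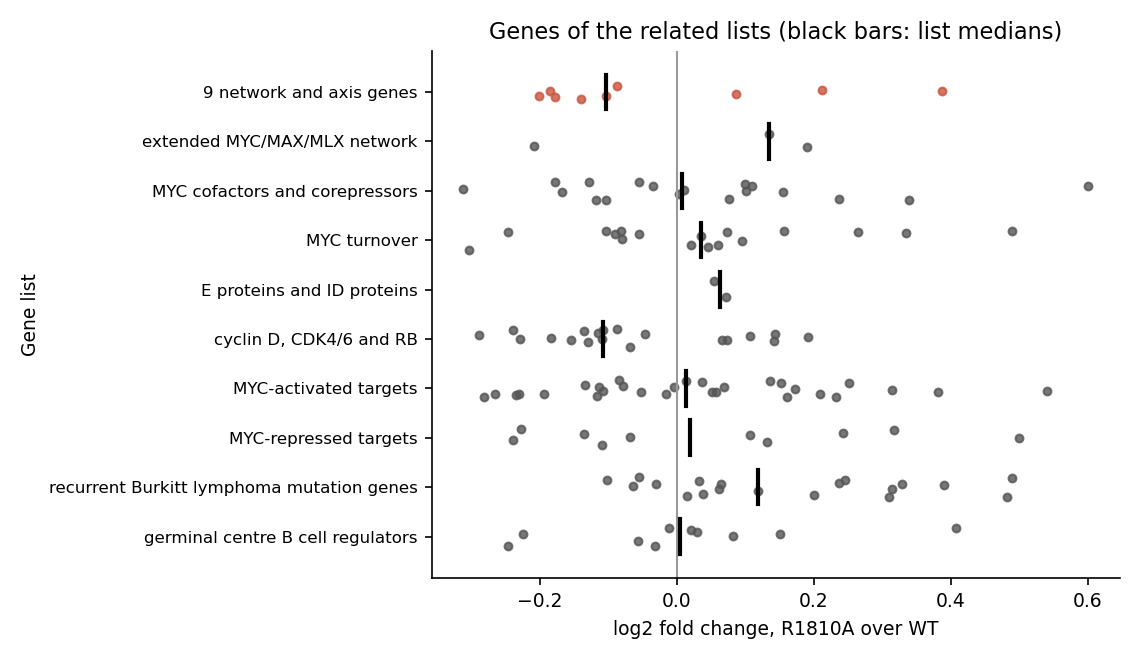
Log2 fold change of R1810A over WT for each tested gene of the 9 genes (red) and of the 9 related lists (grey), with the median of each list as a black bar. The points spread to both sides of 0 in all lists except the E and ID proteins, where only TCF4 and TCF12 were tested. The largest value is that of EP400, at 0.60, from 33 to 60 reads per library.

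Genes widely described as raised by MYC had 15 positive and 14 negative log2 fold changes in 29 tested members, with a median of 0.01. Nucleolin (NCL), which acts in ribosome biogenesis, received 238 and 258 WT reads and 255 and 318 R1810A reads, for a log2 fold change of 0.54 (SE 0.15, edgeR adjusted p = 0.271). Spermidine synthase (SRM) stood at 101 RPKM in WT and 76.2 RPKM in R1810A on average (-0.28, SE 0.10, edgeR adjusted p = 0.508), and the base excision repair enzyme APEX1 at 199 and 152 RPKM (-0.27, SE 0.11). Other targets were close to 0, such as ODC1 of polyamine synthesis at -0.05 and the nucleolar protein gene NOP56 at 0.01.

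Genes described as lowered by MYC had a median of 0.02 in 10 tested members, 5 positive and 5 negative. The integrin chain ITGB2 came nearest to the threshold of all list genes: it received 508 and 698 WT reads and 684 and 656 R1810A reads, for a log2 fold change of 0.50 (SE 0.11, edgeR adjusted p = 0.091). Without WT replicate 1 it passed, at 0.47 (edgeR adjusted p = 0.048). BTG1, an antiproliferative gene, stood at 0.32 (SE 0.16) and its relative BTG2 at -0.23 (SE 0.13).

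Cofactors of MYC and of its antagonists had a median of 0.01 in 18 tested members, 10 positive and 8 negative. RUVBL1, an ATPase bound by MYC, stood at 29.5 RPKM in WT and 21.8 RPKM in R1810A (-0.31, SE 0.11, edgeR adjusted p = 0.481). EP400, a chromatin remodeller, had only 33 and 51 WT reads and 40 and 60 R1810A reads. It stood at 0.71 RPKM in WT and 0.99 RPKM in R1810A on average (0.60, SE 0.27). The corepressors SIN3A and SIN3B, which MXI1, MXD4 and MNT recruit, stood at -0.06 and 0.08.

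Genes that set the stability of the MYC protein had a median of 0.04 in 17 tested members. The deubiquitinase USP36 stood at 0.33 (SE 0.15), USP7 at 0.49 (SE 0.24) and PLK1, a mitotic kinase, at -0.25 (SE 0.13). FBXW7, the ubiquitin ligase that targets MYC for destruction, was low, at 2.44 RPKM in WT and 2.29 RPKM in R1810A. Its log2 fold change was 0.04 (SE 0.25), from counts scaled with TMM and not by total reads as RPKM is.

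The list of D-type cyclins, their kinases and the RB genes also holds inhibitors of these kinases. It had 6 positive and 13 negative log2 fold changes in 19 tested members, with a median of -0.11. When scaled by the deposited total reads, 3 were positive and 16 negative (median -0.23). CDK4, a kinase partner of cyclin D3, was abundant at 140 RPKM in WT and 118 RPKM in R1810A (-0.13, SE 0.10), and CDK6 stood at 16.1 and 14.1 RPKM (-0.07, SE 0.11). CDK2, which acts with cyclin E in the next step, had the smallest p of the list (-0.29, SE 0.12, edgeR adjusted p = 0.567). E2F4 stood at -0.18 (SE 0.11) and RB1, the retinoblastoma protein gene, at 0.19 (SE 0.12).

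Other genes recurrently mutated in Burkitt lymphoma had 15 positive values in 19 tested members, with a median of 0.12. Positive were 9 of 19 when scaled by the deposited total reads (median -0.0027), 12 without WT replicate 2 (median 0.025) and 11 without R1810A replicate 2 (median 0.17). There were 17 positive without WT replicate 1 (median 0.13) and 14 without R1810A replicate 1 (median 0.21). ARID1A, a SWI/SNF chromatin remodelling subunit, received 284 and 371 WT reads and 332 and 389 R1810A reads, for a log2 fold change of 0.48 (SE 0.12, edgeR adjusted p = 0.211). The chromodomain remodeller CHD8 stood at 0.31 (SE 0.12) and the RNA-binding protein PCBP1 at 0.39 (SE 0.16). In 9 of the 19 the groups did not overlap, 8 with R1810A above, beside 39.3% of all genes in either direction and 19.8% with R1810A above. The list was chosen with earlier results of these data known, and no test of the list was made.

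The list labelled germinal centre B cell regulators was drawn up as MYC partners in B cell entry to the cycle. Beside factors of the germinal centre B cell, from which Burkitt lymphoma arises, it holds wider B cell and cell-cycle factors. The list had a median of 0.005 in 10 tested members. POU2AF1, a B cell coactivator, stood at 49.4 RPKM in WT and 38.9 RPKM in R1810A (-0.22, SE 0.12) and FOXM1, a cell-cycle transcription factor, at 27.8 and 21.6 RPKM (-0.25, SE 0.13). IRF4, a factor of B cell activation, received 92 and 39 WT reads and 82 and 60 R1810A reads, and its value of 0.41 (SE 0.40) was -0.24 without WT replicate 2. Without WT replicate 1 it was 1.39, past the threshold (edgeR adjusted p = 0.043).

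For MYC, TCF3, ID3 and CCND3 the genes with the most similar course over the 4 libraries were sought among 5423 others with a mean of at least 100 reads. Likeness was the largest gap between the 2 centred log2 CPM profiles in any library, with a small gap meaning a similar profile. MYC was nearest to RUBCNL (gap 0.02) and GNPNAT1 (0.04), TCF3 to ORAI2 (0.02) and PFAS (0.02), ID3 to MIEN1 (0.01) and BTG2 (0.02), and CCND3 to PTAFR (0.01) and NECAP2 (0.03). A gap under 0.1 was reached by 44 genes for MYC, 251 for TCF3, 155 for ID3 and 106 for CCND3, so with 4 libraries these neighbours are 1 of many.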

How the data were processed

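The deposited counts are the authors' raw reads per Ensembl gene, per the file headers, in 1 table for each of 4 libraries. The deposited RPKM could be recomputed from count, gene length and total reads in 100.0% of rows (relative tolerance 0.0001). Bowtie and the hg19 build are named for the alignment, per the submitters' processing notes. Not given in the sources used here are the counting program, annotation release, strand setting and the treatment of reads with several matches. Of 51714 identifiers 40926 received a symbol, from a names table and GENCODE 29. Of the genes in the related lists 3 had no identifier in the tables.

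Counts were tested with edgeR 4.0.16 (filterByExpr, TMM, glmQLFit, glmQLFTest, a model of group alone, Benjamini-Hochberg adjustment over 10674 genes), in R 4.3.3. The procedure was tested on simulated data in which the added changes were larger than the log2 fold changes of the 9 genes. That test does not tell how well changes of their size are recovered. The SE is the absolute log2 fold change over the square root of F, and the 95% interval uses the t distribution with the fit's degrees of freedom. DESeq2 1.42.0 and limma 3.58.1 (voom) were among 14 alternatives. RPKM was used for levels and ratios within a library, with no pseudocount, and was not tested with a count model. Scaling by the deposited total reads, as in RPKM, moved the median log2 fold change of all genes by -0.12. Group means of RPKM can therefore differ from the log2 fold change given beside them. Symbol lists were described by counts and medians only.

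The members and lists were chosen with earlier results of these data known. Named beside the 9 genes were those of each list past the threshold or otherwise its 3 of smallest p, the 2 genes of most similar profile for 4 of the 9, all members of lists of 7 or fewer, and POLR2A. ODC1, NOP56, SIN3A, SIN3B, FBXW7, CDK4 and CDK6 were named for their role after their values were seen. Some genes that this rule takes are withheld and are not reported here.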

Additional observations from a re-analysis of the deposited data

How the results depend on the processing

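Of 126 recomputed log2 fold changes of the 9 genes (14 alternatives each), 118 kept their direction, 8 changed sign and none passed the threshold. The count of the 9 genes past it was 0 under each alternative. With a library left out, the log2 fold change ran from -0.40 to 0.086 for MYC, -0.33 to 0.085 for MXI1, -0.19 to 0.51 for MXD4, -0.23 to 0.052 for MLX and -0.13 to 0.33 for CCND3. Among other genes it ran from -0.24 to 1.39 for IRF4, -0.018 to 0.17 for TCF12, -0.026 to 0.29 for MLXIP, -0.022 to 0.12 for TCF4 and -0.43 to 0.0067 for MXD3. The ratio differences ran from -0.26 to 0.24 for MYC over MAX, -0.12 to 0.23 for MLX over MAX, -0.094 to 0.093 for TCF3 over ID3 and -0.018 to 0.59 for CCND3 over TCF3. The cause of these changes of sign was not tested. Scaling by the deposited total reads turned CCND3 to -0.037, TCF12 to -0.050 and TCF4 to -0.069.

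Over all genes, 37 higher and 1 lower became 24 higher with limma-voom and 78 higher and 7 lower with no filter. There were 2 lower with DESeq2 and with library size only, 5 lower with total reads and 4 lower with robust edgeR. With a library left out, 2 to 113 were higher and 0 to 40 lower. The lists of MYC-repressed targets and of germinal centre regulators held 0 to 1 called gene with a library left out, ITGB2 and IRF4 without WT replicate 1. The order of the 9 levels was the same with TMM-scaled CPM per kilobase. That measure uses the same counts and deposited gene lengths and differs only in a factor per library. It is therefore little check of the order.

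The labels number the replicates 1 and 2 in both groups, but the deviations of same-numbered libraries from their group means correlated at -0.04 over genes, so the numbers were not taken to pair libraries. With the replicate block 73 genes were higher and 4 lower, and none of the 9. At 26 to 36 reads, MNT is limited by depth.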
